A study of Mus musculus with 3 samples.

Results

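Histone genes were followed in RNA sequencing libraries of cultured mouse neurons. The set held 79 of the 47593 gene rows. Of these, 70 were clustered genes, found by symbols that start with Hist1h, Hist2h, Hist3h or Hist4h, and 9 were replacement genes taken by name: H1f0, H3f3a, H3f3b, H2afz, H2afv, H2afx, H2afj, H2afy and H2afy2. The clustered genes comprised 6 of linker histone H1, 20 of H2A, 19 of H2B, 12 of H3 and 13 of H4, and 3 of the 70 are annotated as pseudogenes. By symbol, 56 belong to Hist1 on chromosome 13, 10 to Hist2 on chromosome 3, 3 to Hist3 on chromosome 11, and Hist4 holds the single gene Hist4h4. Hist1h2al, a processed pseudogene, lies at 51202727 to 51203065, outside the stretch from 21715763 to 23934851 that holds the other Hist1 genes.

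The samples were 3 libraries, replicates 1 to 3, of wild-type primary neurons from the hippocampus, all from 1 group. The neurons were grown in Neurobasal with 10% B27 and 1% GlutaMAX and were given fresh medium with B27 and penicillin-streptomycin, with a treatment time of 24 h. The design also names an arm with apoE particles, which was not analysed here, so no treatment was compared. Whether the replicates are separate cultures or preparations of the same cells is not labelled, so every SD and p measures only the spread between these 3 libraries, which may be technical. The molecule is labelled as total RNA. The sources used here do not give the strand or a selection of polyadenylated RNA.

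Histones wrap DNA into nucleosomes: H2A, H2B, H3 and H4 form the core, and H1 binds the linker DNA between cores. The clustered genes are compact, mostly without introns, and are switched on in S phase to supply newly copied DNA. Their messenger RNAs end in a stem-loop bound by the protein SLBP in place of a poly(A) tail. Replacement genes are transcribed in and out of the cell cycle, usually as polyadenylated messages, and their proteins exchange into existing chromatin, a route of histone supply known in neurons, which no longer divide.

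Recovered reads, the whole reads worked back from the deposited log2 values, numbered 18683960 to 18885652 per library. At this depth 3 reads, the limit that a count of 0 allows in a library, correspond to about 0.16 CPM (reads per 1000000 reads). Such limits and intervals cover counting error only. All 7 neuron markers were at 1 CPM or more, with a summed level of 5826 to 5897 CPM per library. Astrocyte markers (4 of 5, Gjb6 below) summed to 1348 to 1380 CPM, progenitor markers (4 of 4) to 176 to 188, oligodendrocyte markers (3 of 4, Mag below) to 34.5 to 36.7, and markers of dividing cells (4 of 4) to 24.1 to 25.3. None of 5 microglia markers reached 1 CPM, and their sum was 1.92 to 3.34 CPM. In bulk libraries fewer cells of a type and less RNA per cell cannot be told apart, and which of these cells gave the histone reads was not tested.

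The stem-loop is the sequence that sets the clustered messages apart, so the annotated transcripts (GENCODE M21, GRCm38) were searched for it. The pattern was GGNNNTTTTNAGNNCC within 100 bases after the stop codon, on the transcript's own strand. It was found in 45 members, 44 clustered and 1 replacement gene, against 50 of 21830 protein-coding genes in the annotation (0.229%). Of the 70 clustered genes, 54 have any annotated base after a stop codon, so the pattern could not be found in the others. It began 21 to 58 bases after the stop codon, with a median of 31. The 7 forms found are shown 5′ to 3′ as DNA letters, with the letters fixed by the pattern in capitals and the free letters in lower case:
H1, H2A, H2B and H3 genes (26 members): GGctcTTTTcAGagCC
H4 genes only (7 members): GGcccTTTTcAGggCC
H1, H2B and H3 genes (6 members): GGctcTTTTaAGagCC
Hist2h4 and Hist1h4i: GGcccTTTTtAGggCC
Hist1h4j and Hist1h4b: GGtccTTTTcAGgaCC
Hist2h2ac: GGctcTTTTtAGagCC
H2afx: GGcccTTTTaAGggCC
The 26 members of the leading form were 3 H1, 10 H2A, 8 H2B and 5 H3 genes, and none was an H4 gene. In all 7 forms the first 6 bases are the reverse complement of the last 6, the stem. Pairs made of capitals only were set by the pattern, so only pairs with a lower-case letter could have failed. Where the stem differs between forms, both sides change together, and some forms differ only in the free letter between the sides. H2afx, the replacement gene for H2A.X, which is phosphorylated at DNA breaks, was the only replacement gene with the pattern.

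By the deposited values all 9 replacement genes were at 1 CPM or more in every library, and 7 of the 70 clustered genes were. By the same values 12 clustered genes were at 0.5 CPM or more and 5 at 5 CPM or more. Of the 12, Hist1h4i lay at 0.482 CPM in replicate 2 in recovered reads. The threshold of 1 CPM was passed by 29.4% of all rows and by 59.2% of the rows named as protein-coding genes. In reads, 15 clustered genes had none in any library, 34 had 1 to 9 over the 3 libraries and 21 had 10 or more. The clustered genes together took 2702, 2537 and 2562 reads in replicates 1, 2 and 3, against 29541, 28077 and 28248 for the replacement genes. The summed level was 138 ± 4.71 CPM for the clustered and 1524 ± 42.7 CPM for the replacement genes (SD, n = 3). Replacement genes thus held 91.7% ± 0.05 of the histone reads, and all 79 genes together 0.166% ± 0.0047 of all reads. Scaled per kilobase of exon, the replacement share was 83.6% ± 0.10. Whether RNA with poly(A) tails was selected is not given. Its part in this and the later comparisons of clustered with replacement genes was not tested. The medians were 119 CPM over the replacement genes and 0.053 over the clustered genes, beside 0.018 over all rows and 5.41 over protein-coding rows.

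**Figure D1:**
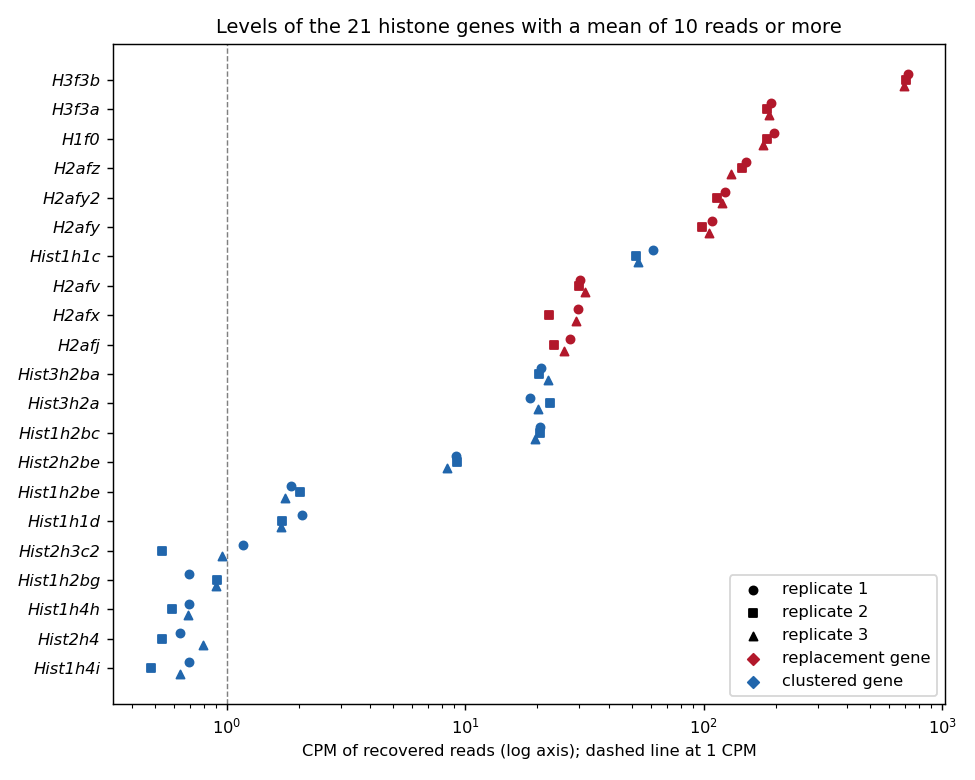
Level of the 21 histone genes that average at least 10 reads, in CPM of recovered reads on a log axis, with a symbol per replicate and colour for replacement or clustered genes. H3f3b stands highest at 690 to 715 CPM, 9 of the 21 are replacement genes, and the 5 genes below Hist1h1d lie between 0.482 and 1.17 CPM in every library.

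H3.3 is the replacement form of H3 that enters chromatin outside replication, and 2 genes, H3f3a and H3f3b, make the same protein. H3f3b (chromosome 11, 116021912 to 116027962, minus strand) had 13430, 13146 and 13030 reads in replicates 1 to 3, or 703 ± 12.6 CPM, the highest level of all members. H3f3a (chromosome 1, 180800832 to 180813943, minus strand) had 3604, 3436 and 3541 reads, or 188 ± 4.01 CPM. The libraries lay close together for both genes, and the 2 genes did not overlap in any library. Per kilobase of exon H3f3b was 2.13 ± 0.02 higher than H3f3a on the log2 scale of the deposited values (0.5 added), with an SD of 0.03 in recovered reads. It was higher in 3 of 3 libraries, which gave p = 0.25 (two-sided exact permutation of signs; 0.25 adjusted over the 4 gene pairs tested), the smallest p that 3 libraries allow. The exons of H3f3a overlap H3f3aos and Gm17275 on the opposite strand, and without the strand reads of these cannot be told apart.

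Clustered H3 genes, which encode the replication-dependent H3.1 and H3.2, took 40, 21 and 29 reads in all, 1.60 ± 0.51 CPM, and none of the 12 reached 1 CPM in every library. The highest was Hist2h3c2 with 22, 10 and 18 reads (0.887 ± 0.323 CPM). Replicate 2 was the lowest for this gene, and the reads of all 3 libraries were few. H3.3 genes gave 99.8% ± 0.05 of all H3 reads, and 99.3% of the H3 level per kilobase of exon. Of the 12 clustered H3 genes 4 had no read.

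No H4 gene has a replacement form among the members, and H4 was the class with little signal throughout. The 13 H4 genes took 58, 47 and 55 reads, 2.84 ± 0.29 CPM in sum, and none reached 1 CPM in every library. Hist1h4h with 13, 11 and 13 reads and Hist2h4 with 12, 10 and 15 were level at 37 reads in all, and Hist1h4i had 13, 9 and 12. Their ranges overlapped, at 0.482 to 0.794 CPM over the 3 genes and libraries. Hist4h4, the lone H4 gene of the Hist4 locus, had 3 reads in all.

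**Figure D2:**
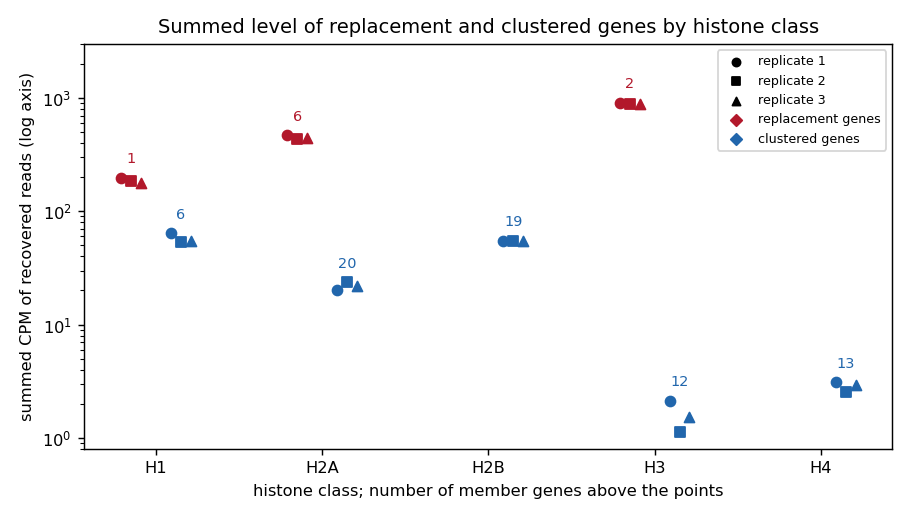
Summed level by histone class, in CPM of recovered reads on a log axis, with a symbol per replicate and the number of genes above each group. Replacement genes lie above clustered genes in H1, H2A and H3 in each library, while H2B and H4 have clustered genes only, at 54.6 and 2.84 CPM on average.

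Among the members, linker histone reads came mainly from H1f0, the gene of H1.0, a linker histone that accumulates in cells that have left the cycle. H1f0 (chromosome 15, 79028450 to 79030504, plus strand, 1 exon) had 3711, 3430 and 3347 reads, or 186 ± 10.4 CPM. Its exon overlaps Gm49544 on the opposite strand. Hist1h1c (chromosome 13, 23738808 to 23740367, plus strand, 1 exon), which encodes H1.2, had 1151, 967 and 1004 reads, or 55.4 ± 5.15 CPM. It was the highest clustered gene and held 40.0% of all clustered reads and 96.1% of the clustered H1 reads. Both genes were highest in replicate 1, and their ranges did not overlap. Per kilobase of exon H1f0 was 1.34 ± 0.02 above Hist1h1c (log2, deposited values, 3 of 3 libraries, exact sign-flip p = 0.25, adjusted 0.25), with an SD of 0.07 in recovered reads. Hist1h1d, the gene of H1.3, had 39, 32 and 32 reads (1.83 ± 0.22 CPM) over 7425 annotated exon bases. Hist1h1e, which encodes H1.4, shares exon bases on the same strand with Hist1h2be and reached 0.284 ± 0.123 CPM. The testis gene Hist1h1t had no read.

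The 6 replacement genes of class H2A gave 447 ± 19.1 CPM, against 21.8 ± 1.74 CPM from the 20 clustered H2A genes. H2A.Z, a variant found at promoters, is made by H2afz and H2afv. H2afz (chromosome 3, 137864487 to 137866922, plus strand) had 2813, 2698 and 2445 reads, or 141 ± 10.5 CPM. H2afv had 570, 561 and 599 reads, or 30.7 ± 0.90 CPM. Replicate 3 was lowest for H2afz and highest for H2afv. H2afz was 2.05 ± 0.06 above H2afv per kilobase of exon (log2, deposited values, 3 of 3 libraries, exact sign-flip p = 0.25, adjusted 0.25), with an SD of 0.15 in recovered reads. Scaled by the longest annotated transcript instead, the difference was 2.78.

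MacroH2A, an H2A with a large extra domain that is linked to silent chromatin, is made by H2afy and H2afy2. H2afy2 (chromosome 10, 61738665 to 61784147, minus strand) had 2304, 2115 and 2262 reads, or 119 ± 4.86 CPM. H2afy (chromosome 13, 56073619 to 56136361, minus strand) had 2035, 1833 and 1980 reads, or 104 ± 5.21 CPM. Replicate 2 was lowest and replicate 1 highest for both. Per kilobase of exon H2afy2 was 1.81 ± 0.004 higher (log2, deposited values, 3 of 3 libraries, exact sign-flip p = 0.25, adjusted 0.25), with an SD of 0.012 in recovered reads. The difference was only 0.10 per kilobase of the longest transcript and 0.19 with no length scaling. The annotated exons of H2afy sum to 6809 bases and its longest transcript to 2046, against 2175 for both measures in H2afy2, so the size of this difference rests on the length used. H2afy2 shares exon bases with Aifm2, and H2afy with Gm47071, on the opposite strand.

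The remaining replacement genes were lower. H2afx (chromosome 9, 44334694 to 44336077, plus strand) had 558, 419 and 552 reads, or 27.1 ± 4.07 CPM, and replicate 2 lay apart from the other two. H2afj had 516, 439 and 492 reads, or 25.7 ± 2.02 CPM. It lies on chromosome 6 (136808244 to 136810074, plus strand), near Hist4h4 (136801553 to 136804415, minus strand). H2afv, H2afx and H2afj lay within 22.4 to 31.7 CPM, and the ranges of H2afx and H2afj overlapped. H2afx shares exon bases with Gm44335, and H2afj with Gm44364, on the opposite strand. Of the clustered H2A genes only Hist3h2a reached 1 CPM, with 352, 422 and 382 reads (20.5 ± 1.94 CPM), 94.2% of the clustered H2A reads. Its exons overlap Trim17 on the same strand, and reads in the overlap cannot be told apart.

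H2B has no replacement gene among the members, and 4 of its 19 clustered genes were at 1 CPM or more. Hist3h2ba (chromosome 11, 58948920 to 58949533, plus strand) had 391, 381 and 418 reads, or 21.1 ± 0.91 CPM. Hist1h2bc (chromosome 13, 23684199 to 23692908, plus strand) had 387, 384 and 369 reads, or 20.2 ± 0.60 CPM. Hist2h2be (chromosome 3, 96221119 to 96223738, plus strand) had 172, 172 and 158 reads, or 8.91 ± 0.47 CPM. Hist1h2be had 35, 38 and 33 reads, or 1.88 ± 0.14 CPM. Per kilobase of exon the order was Hist3h2ba at 34.4 ± 1.48, Hist1h2bc at 17.5 ± 0.52, Hist2h2be at 3.40 ± 0.18 and Hist1h2be at 0.423 ± 0.032, and no neighbours in it overlapped. Next came Hist1h2bg with 13, 17 and 17 reads (0.834 ± 0.123 CPM). The H2B sum of 54.6 ± 0.19 CPM was made of few genes, since Hist3h2ba alone held 38.7% of the H2B reads.

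The 7 clustered genes at 1 CPM or more held 93.8% ± 0.53 of the clustered reads: Hist1h1c, Hist3h2ba, Hist3h2a, Hist1h2bc, Hist2h2be, Hist1h2be and Hist1h1d. They are annotated with 213 to 4931 bases after the stop codon, with a median of 1700. The 60 other clustered genes with an annotated stop codon have 0 to 2515 such bases, with a median of 89, and the 9 replacement genes have 475 to 2245, with a median of 1142. Of the 7, 5 hold the stem-loop pattern, and their transcripts run on for 169 to 4884 bases past it. Hist1h2bc and Hist2h2be have no match in the 100 bases searched, and their annotated transcripts go on for 742 and 2192 bases after the stop codon. AATAAA or ATTAAA, letters of the poly(A) signal, stood in the last 50 bases of an annotated transcript for 5 of the 7, for 12 of the 63 other clustered genes, of which 47 have any annotated base after the stop codon, and for 8 of the 9 replacement genes. The share over protein-coding genes was 78.3%. A longer annotated end also gives reads more bases to fall on, and its part in these counts was not tested.

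**Figure D3:**
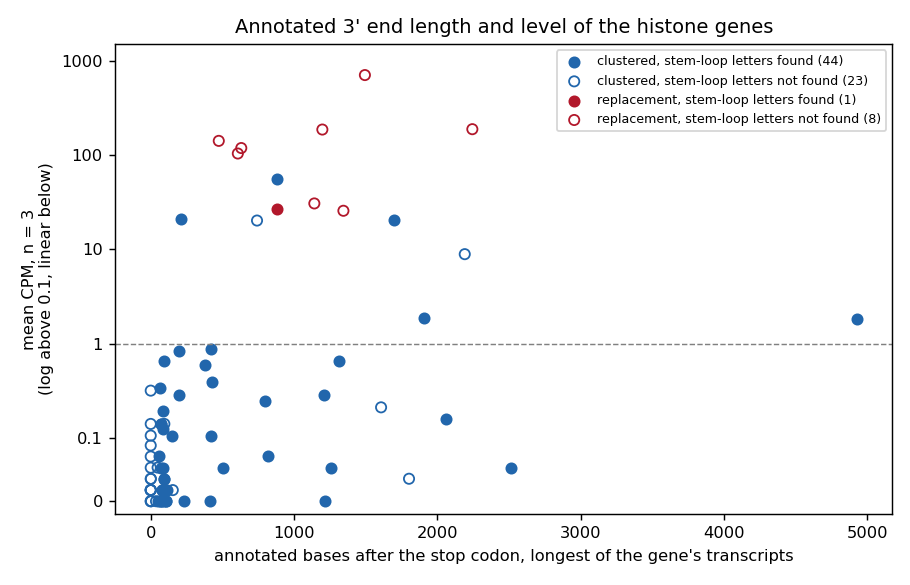
Annotated bases after the stop codon (longest of a gene's transcripts) against the mean CPM of recovered reads (n = 3), for the 76 members with an annotated stop codon. Filled points hold the stem-loop pattern; the points at or above the dashed line at 1 CPM all have 213 bases or more, and most genes near 0 CPM have few.

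Stretches of many clustered genes also occur in transcripts of other genes, which bears on how many reads can be assigned. Words were matched on either strand, and genes that overlap a member were counted as other genes. These include Trim17 for Hist3h2a, and H3f3aos and Gm17275 for H3f3a. The shares below are thus not a measure of gene copies alone. Over the clustered genes, a median of 35.7% of a gene's 100-base words occurred in the annotated transcripts of another gene, against 4.44% over the replacement genes. The share was uneven within 2 of the tested pairs, at 25.7% in H2afz and 0% in H2afv, and 20.8% in H3f3a and 1.92% in H3f3b. In 29 of the 70 clustered genes 50% or more of the words were shared, all 29 of them among the 63 genes below 1 CPM. Of the 15 genes with no read, 9 shared 50% or more of their words, and Hist2h2aa1, Hist2h2aa2, Hist2h3c1 and Hist2h3b shared 100%. The other 6, Hist1h1t, Hist1h2aa, Hist1h2bb, Hist1h3a, Hist1h3f and Hist1h4f, shared less. The sources used here do not give how reads matching several genes were counted. Its part in the low counts and in the ratios of gene pairs was not tested. Among the 7 genes at 1 CPM or more the shared part was 0% in Hist2h2be to 29.8% in Hist3h2a.

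Many H2A and H2B genes stand head to head and share the stretch between their starts. There were 14 such pairs, with 172 to 305 bases between the starts. In 3 of them a gene was at 1 CPM or more. The stretch between the starts is shown for these 3 because the read counts of the neighbours part widely in them. It runs from the RefSeq start of the H2A gene to the GENCODE start of the H2B gene. The RefSeq start of Hist1h2ac lies 11 bases upstream of the GENCODE start, so 239 bases are shown of the 250 between the GENCODE starts of that pair. Letters are from the RefSeq promoter table (GRCm38.p6), plus strand, 5′ to 3′, with the CCAAT box, the letters of the TATAAA box and the octamer ATTTGCAT in capitals, in either orientation:
Hist1h2ac to Hist1h2bc, chr13:23683960-23684198: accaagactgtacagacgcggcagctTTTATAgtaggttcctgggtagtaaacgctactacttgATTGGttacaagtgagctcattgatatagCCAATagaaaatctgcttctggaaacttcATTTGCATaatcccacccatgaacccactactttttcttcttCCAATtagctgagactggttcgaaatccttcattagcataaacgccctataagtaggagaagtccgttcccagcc
Hist2h2ac to Hist2h2be, chr3:96220881-96221118: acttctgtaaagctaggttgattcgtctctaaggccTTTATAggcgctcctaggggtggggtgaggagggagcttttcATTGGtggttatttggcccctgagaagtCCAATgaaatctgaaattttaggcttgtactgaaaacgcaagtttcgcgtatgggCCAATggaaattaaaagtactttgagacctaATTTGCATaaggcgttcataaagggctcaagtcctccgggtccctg
Hist3h2bb-ps to Hist3h2a, chr11:58954513-58954684: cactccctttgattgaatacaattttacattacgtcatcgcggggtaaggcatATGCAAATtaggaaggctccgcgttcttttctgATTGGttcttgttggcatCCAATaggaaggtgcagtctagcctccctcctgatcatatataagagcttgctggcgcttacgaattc
As printed, the Hist1 and Hist2 stretches each hold 3 CCAAT boxes, 1 TATAAA and 1 octamer, ATTTGCAT, the site of Oct factors that is known from H2B promoters. The Hist3 stretch holds 2 CCAAT boxes and 1 octamer, with no TATAAA.

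Hist1h2bc had 1140 reads over the 3 libraries and Hist1h2ac, its H2A neighbour, 9. Hist2h2be had 502 reads and Hist2h2ac 2. In the third pair the order was the other way, with 1156 reads for Hist3h2a and 25 for Hist3h2bb-ps, an H2B pseudogene. Per kilobase of exon the ratio of reads was 272 for Hist1h2bc over Hist1h2ac (95% exact interval 143 to 596), 49.8 for Hist2h2be over Hist2h2ac (13.7 to 412) and 10.0 for Hist3h2a over Hist3h2bb-ps (6.75 to 15.5). On the log2 scale of the deposited values with 0.5 added the H2B over H2A difference was 5.00 ± 0.01, 2.78 ± 0.01 and -2.79 ± 0.02 (SD, n = 3), with SDs of 0.09, 0.20 and 0.25 in recovered reads. These sizes depend on the constant and the length: with 5 added they were 2.15, 0.73 and -1.29, and with no length scaling the latter pairs gave 4.14 and -4.48. Over all 14 pairs the H2B gene had more reads in 11, the H2A gene in 2, and 1 pair was equal. Most of these rest on few reads, since in the other 11 pairs no gene had more than 47. All 20 clustered H2A genes share exon bases with another annotated gene, against 2 of the 19 clustered H2B genes. Hist1h2ac overlaps Gm24991 on the same strand and Gm44350 on the opposite strand. Hist2h2ac overlaps Gm44492 on the opposite strand, while Hist1h2bc and Hist2h2be have no such overlap. How reads in such overlaps were counted is not given, and its part in these ratios was not tested.

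**Figure D4:**
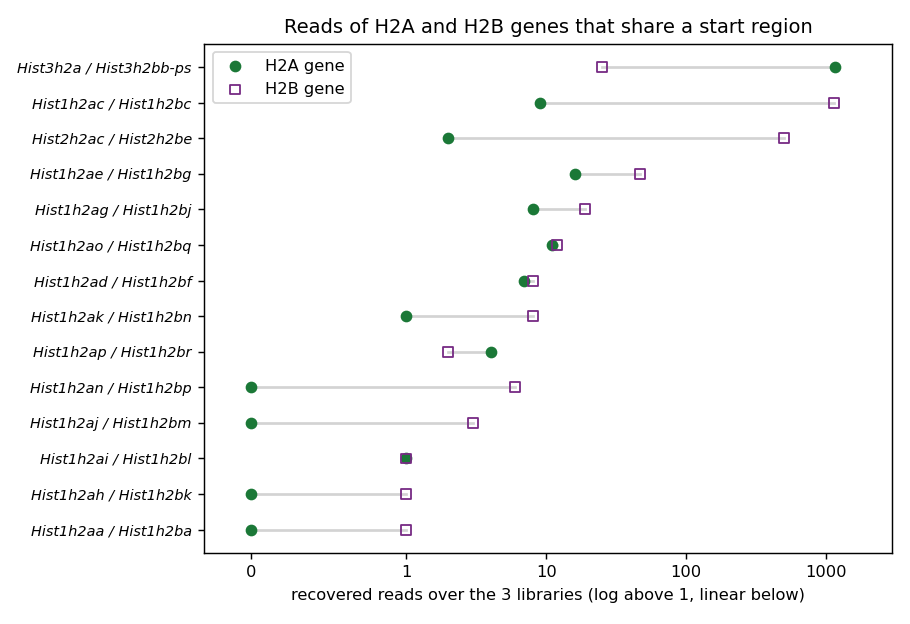
Recovered reads over the 3 libraries for the H2A gene (filled circle) and the H2B gene (open square) of each of the 14 head-to-head pairs, log above 1 and linear below. The upper 3 pairs part widely, with 1156 against 25, 9 against 1140 and 2 against 502 reads, and the rest lie at 47 reads or fewer.

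The same letters were searched on both strands in the RefSeq promoter windows of 70 members (62 clustered and 8 replacement genes; no entry was matched for the others). A member was counted if any of its windows held the letters. The share of all is over single windows, so the units differ. CCAAT was found for 53 of 62 clustered genes (85.5%) and 6 of 8 replacement genes, against 37.4% of all 32851 windows. It was found for all clustered H1, H2A, H2B and H3 genes with a window, 6, 18, 16 and 10 in number, and 3 of 12 H4 genes. TATAAA was found for 35 of 62 clustered genes (56.5%) and 1 of 8 replacement genes, H3f3b, against 13.6% of all windows. The octamer ATTTGCAT was found for 14 of 62 clustered genes (22.6%), 7 of H2A and 7 of H2B. No H1, H3 or H4 clustered gene held it, but H3f3b did, against 1.74% of all windows. GGGCGG, the core of an Sp1 site, was found for 24 of 62 clustered genes (38.7%) and 6 of 8 replacement genes, against 35.7% of all windows. Windows of a head-to-head pair overlap and so share letters. A match is a description of the letters and not a measured site.

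The libraries were then compared with each other for the 21 members that averaged at least 10 reads, 9 replacement and 12 clustered. A Pearson chi-square test with a dispersion trend fitted over 15131 genes called 0 of the 21 at an adjusted p under 0.05, and 50 of all genes tested (0.33%). At an unadjusted p under 0.05 it called 3 members, H2afx, Hist1h1c and H2afz, against 6.2% of all genes. With counting error alone 4 members passed at an adjusted p under 0.05 (H2afz, H2afx, H1f0 and Hist1h1c) and 6 at an unadjusted p under 0.05, against 8.69% and 20.6% of all genes at those thresholds. By the dispersion trend the adjusted p was 0.217 for H2afx, 0.633 for Hist1h1c and 0.655 for H2afz. The highest library exceeded the lowest by 1.03-fold in H3f3b to 2.16-fold in Hist2h3c2, with a median of 1.16-fold over the 21 and 1.11-fold over all genes tested. Of the 9 replacement genes 8 were highest in replicate 1, all but H2afv, while 30.4% of all genes tested were highest there. The genes of a library share its depth scaling and its cells, so these 8 are not independent of each other.

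**Figure D5:**
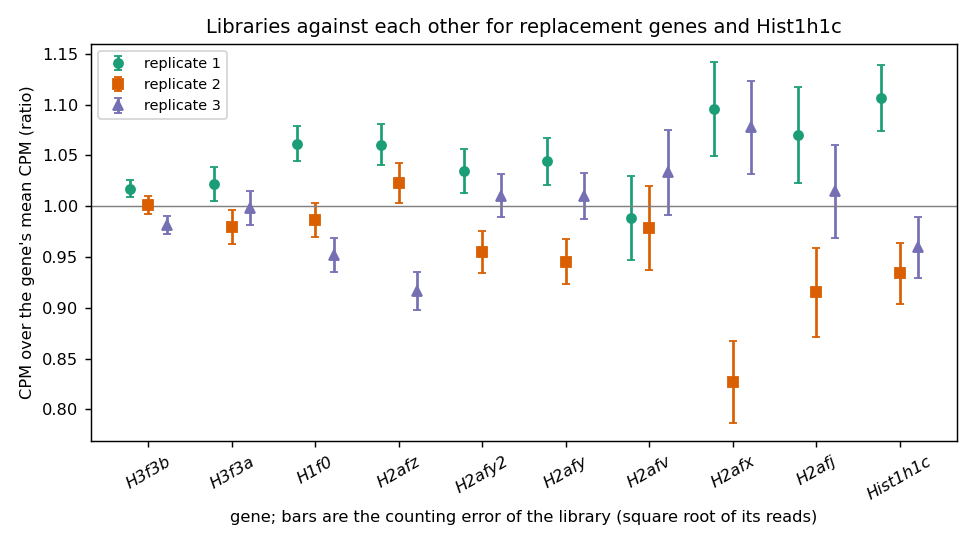
Level in each replicate over the gene's mean for the 9 replacement genes and Hist1h1c, as a ratio of CPM, with bars for counting error (the square root of the library's reads). Replicate 1 is the highest for all genes shown but H2afv, and H2afx lies lowest in replicate 2 at 22.4 CPM against 29.7 and 29.2.

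Genes that process or handle histones were read beside the members. Of 15 genes for stem-loop histone messages 14 were at 1 CPM or more, led by Lsm11 (171 ± 3.42 CPM), a part of the U7 particle, the cleavage scaffold gene Sympk (161 ± 8.24) and the cap-binding gene Ncbp1 (88.2 ± 1.5). Slbp itself, the gene of the stem-loop binding protein, lay at 32.3 ± 0.74 CPM, and Zfp473, the gene of a U7-linked zinc finger protein, had 33 reads in all and lay under 1 CPM. Every gene of both chaperone lists was at 1 CPM or more. The 7 genes listed for replication were led by Rbbp7 (155 ± 5.34 CPM), Rbbp4 (145 ± 1.16) and Nasp (85.1 ± 1.14). The 6 genes listed for placing H3.3 were led by Atrx (236 ± 17.4), Cabin1 (92.3 ± 4.72) and Ubn1 (58.5 ± 0.40). The CAF-1 subunit genes Chaf1a and Chaf1b, which load H3 behind the replication fork, lay at 3.89 ± 0.44 and 4.91 ± 0.37 CPM. Asf1b was the lowest of the replication list, at 1.60 ± 0.19 CPM. All 15 genes that handle H2A with H2B or H2A.Z were at 1 CPM or more, led by Npm1 (378 ± 20.2 CPM), Nap1l1 (365 ± 0.94) and Set (305 ± 12.2).

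Genes of the S phase, when clustered genes are active, and of mitosis were all at 1 CPM or more, 17 of 17, with a median of 9.53 CPM. Pcna (81.6 ± 2.27 CPM), Mcm7 (69.5 ± 2.37) and Mcm6 (36.4 ± 1.00) led them, and Mki67, a marker of cycling cells, lay at 6.16 ± 0.54. Of 9 further histone genes outside the rule, H1fx (27.2 ± 2.43 CPM), the gene of H1.X, was at 1 CPM or more in every library. Cenpa, the centromeric H3, had 60 reads (1.06 ± 0.56 CPM). By the deposited values Cenpa passed 1 CPM in every library, but recovered reads gave 0.852, 0.642 and 1.69 CPM in replicates 1 to 3. H3f3c had 46 reads in all, H1foo had 6, and H1fnt, Hils1, H2afb1, H2afb2 and H2afb3, genes of the germ line, had none.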

How the data were processed

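The authors deposited 1 log2 value per gene and library; the submitters' processing notes name GRCm38 with HISAT2, featureCounts, DESeq2 and FastQC, and the sources used here give no versions or settings. The values look like a regularized log, which pulls libraries together for genes with few reads, so their SD understates the spread. Whole reads were recovered by inverting a ridge-penalised negative binomial fit (6 parameters): 77088 values were inverted, and 99.9% fell no further than 0.1 from a whole number (20% by chance), members at most 0.014. Detection, shares per kilobase and gene ratios used 2 raised to the deposited value, scaled to 1000000; read numbers and CPM levels are those of the recovered reads, an added alternative. A row listed at exactly 0 in all libraries had no reads.

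Lengths, stop codons and overlaps come from GENCODE M21, as the union of annotated exons unless stated. Gene pairs (log2 per kilobase, 0.5 added) were tested by exact sign-flip permutation with Benjamini-Hochberg adjustment, libraries by a chi-square test on 2 degrees of freedom with median-of-ratios size factors, tested on simulated data. The library test had to use recovered reads because log2 values cannot enter it. Members, lists and tests were chosen with earlier results of these data known. Named genes were the replacement genes, the 12 highest clustered genes, the highest of each class and cluster, the pairs with a detected gene, and the 3 highest and the undetected genes of each list; other names were chosen after their values were seen. The computations used Python 3.11.15, numpy 2.4.6, scipy 1.17.1 and pandas 2.3.3.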

Additional observations from a re-analysis of the deposited data

How the results depend on the processing

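None of the 80 alternative values reversed a direction, but sizes moved. The 80 include counts of genes and shares, which have no direction that could reverse. No paired analysis was possible because all 3 libraries belong to 1 group. At 0.5 CPM in place of 1, 12 clustered genes were detected by the deposited values, and 5 at 5 CPM, with 9 replacement genes at each. H2afy2 over H2afy was 0.19 on the log2 scale with no length scaling and 0.10 per kilobase of the longest transcript, against 1.81, and H2afz over H2afv was 2.78 by the longest transcript, against 2.05. The replacement share of the histone level was 83.6% per kilobase of exon and 86.4% per kilobase of the longest transcript, a length chosen after seeing the data, against 91.7%. The H3.3 share of the H3 level was 99.8% with no length scaling, against 99.3% per kilobase. Of the head-to-head pairs, Hist2h2be over Hist2h2ac was 4.14 and Hist3h2bb-ps over Hist3h2a was -4.48 on the log2 scale with no length scaling. With 5 added in place of 0.5 the pairs gave 0.73 (Hist2h2be over Hist2h2ac), -1.29 (Hist3h2bb-ps over Hist3h2a) and 2.15 (Hist1h2bc over Hist1h2ac). With counting error alone 4 members differed between libraries, against 0 with the dispersion trend. Leaving out each library in turn gave replacement shares of 91.66% to 91.69%, 7 clustered genes each time, and 0 members that differed. With few reads, clustered genes near 1 CPM cannot be ranked, and the SDs of deposited ratios understate the spread between libraries.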
